A study of Homo sapiens with 6 samples.

Results

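The LIN28, HMGA, IGF2BP and Musashi genes are a set of 9 protein-coding genes: LIN28A, LIN28B, HMGA1, HMGA2, IGF2BP1, IGF2BP2, IGF2BP3, MSI1 and MSI2. They were taken by symbol from a table of 62703 genes, where each symbol named 1 row. The rule uses no measured value, but the members were chosen with earlier results of these data known. The table holds RNA-seq counts of HGC-27 cells, a human line derived from gastric cancer, kept in medium with 10% fetal bovine serum. One group, shGXYLT2, is 3 libraries of a stably transfected HGC-27 strain with an shRNA against GXYLT2, a xylosyltransferase that acts on EGF repeats. The other group, shControl, is 3 libraries of the same line with a control shRNA, given the genotype WT in the labels. The study asked how lower GXYLT2 alters genes of proliferation, invasion and stemness. The sources used here do not say whether each strain was 1 clone, whether libraries came from separate cultures or what sequence the shRNA had. The p-values therefore cover only library-to-library spread, which may be technical.

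Most of these genes are called oncofetal because they are active in the embryo, fall low or silent in many adult tissues and return in many tumours. LIN28A and LIN28B are RNA-binding proteins that block the maturation of let-7, a family of microRNAs that represses LIN28B, HMGA2, HMGA1 and the IGF2BP genes in turn. HMGA1 and HMGA2 are small chromatin proteins that bend AT-rich DNA. IGF2BP1, IGF2BP2 and IGF2BP3 bind messenger RNAs, many of them marked by N6-methyladenosine (m6A), and protect them from decay. MSI1 and MSI2, the Musashi proteins, bind messenger RNAs and alter their translation, the Notch inhibitor NUMB being the classic target.

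The let-7 sequences are shown because most of the set is joined by them. They are from RefSeq (GRCh38.p14), with the seed, bases 2 to 8 counted from the 5′ end, in capitals; the 3 shown share the seed GAGGUAG with every other let-7 form and miR-98 in that table.
let-7a (chr9:94175962-94175983, plus strand, also encoded at other loci): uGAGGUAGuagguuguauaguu
let-7b (chr22:46113691-46113712, plus strand): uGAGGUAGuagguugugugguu
let-7g (chr3:52268336-52268357, minus strand): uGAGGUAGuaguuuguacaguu

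A transcript that pairs with this seed carries CTACCTC. The annotated 3′ UTRs of at least 100 bases (GENCODE 29, GRCh38, transcript strand only) held CTACCTC in 2005 of 18266 protein-coding genes (10.98%), and in 7 of the 9 members. LIN28B, HMGA2 and IGF2BP1 had 4 copies each, a number reached by 14 genes in all (0.077%). LIN28A, HMGA1, IGF2BP2 and IGF2BP3 had 1 copy each, and MSI1 and MSI2 had none in these windows. The copies of LIN28B and HMGA2 and that of IGF2BP3 are printed on the transcript strand with CTACCTC in capitals. LIN28B and HMGA2 are shown as the members whose groups did not overlap, as in 30.4% of all tested genes. IGF2BP3 stands for those with 1 copy. The UTR base is that of the first capital, and the coordinates (GRCh38) span all letters printed.
LIN28B, 3′ UTR base 44 (chr6:105078816-105078844, plus strand): ggttgcaaagtCTACCTCatgcaagtata
LIN28B, 3′ UTR base 2471 (chr6:105081243-105081271, plus strand): gatgatagtaaCTACCTCtgagtttgaca
LIN28B, 3′ UTR base 2653 (chr6:105081425-105081453, plus strand): acagcaaaaggCTACCTCatagttgatac
LIN28B, 3′ UTR base 4092 (chr6:105082864-105082892, plus strand): gatggtgttgaCTACCTCttgaatcacat
HMGA2, 3′ UTR base 21 (chr12:65963302-65963330, plus strand): acgttcgatttCTACCTCagcagcagttg
HMGA2, 3′ UTR base 1256 (chr12:65964537-65964565, plus strand): actactcaataCTACCTCtgaatgttaca
HMGA2, 3′ UTR base 1668 (chr12:65964949-65964977, plus strand): cttgcaaagacCTACCTCcagacttcaaa
HMGA2, 3′ UTR base 2521 (chr12:65965802-65965830, plus strand): aaaacacactaCTACCTCttaagtcccag
IGF2BP3, 3′ UTR base 560 (chr7:23311785-23311813, minus strand): tttttactcaaCTACCTCaggtattcagt

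**Figure D1:**
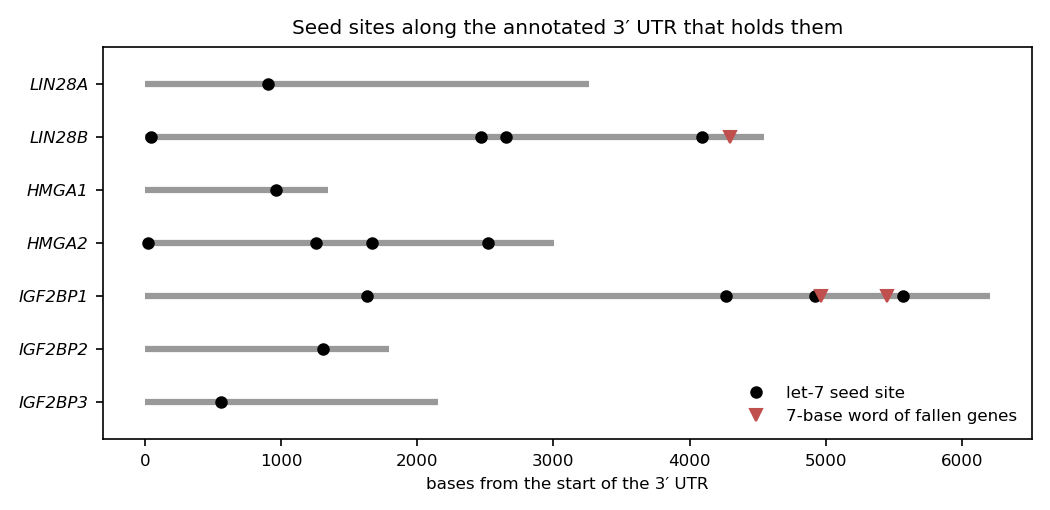
Positions of CTACCTC (black circles) along the 3′ UTR of the 7 members that hold it, in bases from the start of the UTR, with each grey bar as long as the UTR. LIN28B, HMGA2 and IGF2BP1 have 4 circles each; red triangles mark the 7-base word GACTCAT, present once in LIN28B and at 2 places in IGF2BP1.

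The estimated counts totalled 22188073 to 24898425 in the shGXYLT2 libraries and 17291138 to 22540099 in the shControl libraries. GXYLT2 itself, in CPM (the share of a library's counts, scaled with TMM factors), was at 5.27, 6.26 and 5.34 CPM in the shGXYLT2 libraries and at 20.7, 22.8 and 20.2 CPM in the shControl libraries, and its log2 fold change was -1.91 (SE 0.11, edgeR adjusted p = 6.3e-10). GXYLT2 shares 62 exon bases with PPP4R2 on the same strand. Its paralog GXYLT1 was lower too, averaging 35.4 CPM in shGXYLT2 and 73.2 CPM in shControl. The log2 fold change of GXYLT1 was -1.05 (SE 0.081, edgeR adjusted p = 3.7e-08), a call kept in each of 13 alternative settings. The part of the GXYLT1 change in the results on the 9 genes was not tested. Of 15693 genes tested with edgeR's quasi-likelihood test, 1907 (12.2%) had a Benjamini-Hochberg adjusted p below 0.05, 833 higher (5.31%) and 1074 lower (6.84%). The labelled cell type was only partly matched by marker genes. Of 7 epithelial markers, EPCAM, KRT7, KRT18 and KRT19 stayed under 1 CPM in every library. MUC1 averaged 7.49 CPM in shGXYLT2 and 7.30 CPM in shControl, CDH1 2.32 CPM and 2.92 CPM, and KRT8 1.775 CPM and 1.57 CPM. The epithelial list summed to 10.7 to 12.9 CPM in shGXYLT2 and 11.5 to 12.9 CPM in shControl. Of 8 gastric markers, MUC5AC, TFF1, TFF2, GKN1, GKN2 and PGC were at 0 counts, and the list summed to 3.38 to 5.59 CPM in shGXYLT2 and 1.97 to 2.48 CPM in shControl, with MUC6 higher in shGXYLT2. The 6 fibroblast markers summed to 2136 to 2262 CPM in shGXYLT2 and 1940 to 2024 CPM in shControl. Most of this sum was the collagen gene COL3A1, which averaged 1671 CPM and 1579 CPM. DCN and LUM were higher in shGXYLT2, and the others, COL3A1 among them, gave no call. PDGFRA averaged 30.3 CPM in shGXYLT2 and 26.2 CPM in shControl, and FAP averaged 8.50 CPM and 8.88 CPM. PDGFRB averaged 0.673 CPM in shGXYLT2 and 1.28 CPM in shControl. The part of the fibroblast marker difference in the results on the 9 genes was not tested. Leukocyte markers (7) summed to at most 1.81 CPM in shGXYLT2 and 2.19 CPM in shControl, endothelial markers (5) to at most 0.884 CPM and 1.099 CPM, with CD3E, MS4A1, PECAM1, CDH5 and KDR at 0 counts.

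Of the 9 genes, 8 passed the filter on low counts and were tested, and 1 of these 8, LIN28B, changed. It was lower in shGXYLT2 cells, and 0 members were higher; the shares over all tested genes were 6.84% lower and 5.31% higher, so the count of members called is near the background. At an unadjusted p below 0.05 edgeR gave 1 member lower and 0 higher, the DESeq2 Wald test called 0, and limma-voom called 1 lower and 0 higher. The share of all tested genes at that unadjusted threshold was not computed. The 7 tested members that did not pass had log2 fold changes between -0.20 and 0.11, and 95% intervals that, MSI1 aside, stayed within -0.40 and 0.24. In these bulk libraries, fewer cells that express a gene and less RNA per cell cannot be told apart.

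**Figure D2:**
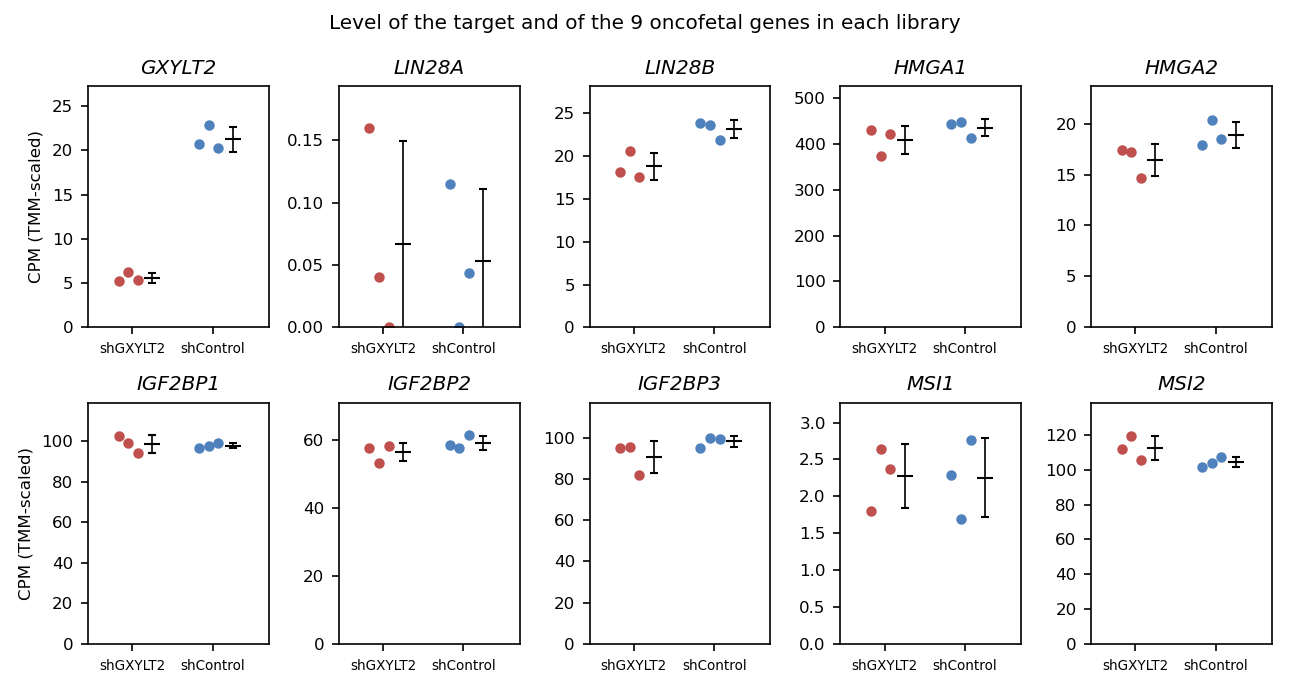
CPM of GXYLT2 and of the 9 genes in each library, shGXYLT2 in red and shControl in blue, with the mean and SD of 3 libraries beside the points in black; every axis starts at 0, which cuts off the SD bars of LIN28A. GXYLT2, LIN28B and HMGA2 are the panels without overlap between the groups, which 30.4% of all tested genes show, and LIN28A is at most at 0.160 CPM.

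LIN28B (chr6:104936616-105083332, plus strand, GRCh38) was the LIN28 gene of these cells. Its level was 18.2, 20.6 and 17.6 CPM in the shGXYLT2 libraries, against 23.8, 23.6 and 21.9 CPM in the shControl libraries. Every shGXYLT2 library lay below every shControl library, a separation found in 30.4% of all tested genes. The means were 18.8 ± 1.61 CPM in shGXYLT2 and 23.1 ± 1.04 CPM in shControl (SD, n = 3 each), and LIN28B fell by 18.5% (log2 fold change -0.30, SE 0.089, edgeR adjusted p = 0.0361). The 95% interval of the log2 fold change ran from -0.48 to -0.11, and an exact two-sided permutation test of the CPM gave p = 0.1, the smallest that 3 against 3 libraries can reach. The change was smaller than the median size of called changes, a log2 of 0.39, and larger than that of 77.0% of tested genes.

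The LIN28B call was lost when any of 5 of the 6 libraries was left out. Leaving out shGXYLT2 replicate 1 or 3 gave an adjusted p of 0.127 or 0.0651, and leaving out shControl replicate 1, 2 or 3 gave 0.154, 0.128 or 0.0692. Leaving out shGXYLT2 replicate 2 gave 0.0142. The DESeq2 Wald test gave 0.0523. LIN28B was lower in each of these fits, with log2 fold changes of -0.37 to -0.25.

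LIN28A (chr1:26410778-26429722, plus strand), the paralog typical of pluripotent cells, was close to the limit of detection. It had 4, 1 and 0 counts in the shGXYLT2 libraries and 2, 0 and 1 counts in the shControl libraries, near the limit that a count of 0 allows, 3 counts or 0.121 to 0.135 CPM of the library total in shGXYLT2 and 0.133 to 0.174 CPM in shControl. These limits cover counting error only. LIN28A did not pass the filter and was not tested, and a difference between the groups was not detectable at this depth. LIN28B made up at least 99.4% of the length-scaled LIN28 signal in every library.

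HMGA2 (chr12:65824131-65966295, plus strand), the let-7 target with the best known cluster of sites, was at 17.4, 17.2 and 14.6 CPM in the shGXYLT2 libraries and at 17.9, 20.3 and 18.5 CPM in the shControl libraries. The groups did not overlap, as in 30.4% of all tested genes, and the gap between the nearest libraries was small beside the spread within each group. The means were 16.4 ± 1.55 CPM in shGXYLT2 and 18.9 ± 1.26 CPM in shControl (SD, n = 3 each), with a log2 fold change of -0.20 (SE 0.096, edgeR adjusted p = 0.20). The interval of -0.40 to 0.0018 on the log2 scale just includes 0, and the adjusted p was 0.166 to 0.488 over the alternative settings. The log2 fold change was -0.12 without shGXYLT2 replicate 3, its lowest library.

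HMGA1 (chr6:34236873-34246231, plus strand) was the most abundant member. Its levels were 430.3, 374 and 421 CPM in shGXYLT2 and 443, 447 and 413 CPM in shControl, so the groups overlapped. The log2 fold change was -0.088 (SE 0.062, edgeR adjusted p = 0.40), with a 95% interval of -0.22 to 0.041, and it was -0.031 without shGXYLT2 replicate 2, the lowest library. Processed copies and antisense partners of the members, 13 rows in all with the HMGA1 pseudogenes among them, had at most 5 counts in any library.

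All 3 IGF2BP genes were expressed in both groups. IGF2BP1 (chr17:48997412-49055650, plus strand) was at 103, 99.4 and 94.1 CPM in shGXYLT2 and 96.7, 97.5 and 99.1 CPM in shControl. It had 4 let-7 sites, as LIN28B did, and its log2 fold change was 0.015 (SE 0.061, edgeR adjusted p = 0.91), with a 95% interval of -0.11 to 0.14. IGF2BP2 (chr3:185643739-185825056, minus strand), the family member that adult tissues keep, was at 57.8, 53.4 and 58.3 CPM in shGXYLT2 and 58.6, 57.6 and 61.4 CPM in shControl. Its log2 fold change was -0.068 (SE 0.067, edgeR adjusted p = 0.57), and the groups overlapped. It was -0.031 without shGXYLT2 replicate 2 and -0.039 without shControl replicate 3.

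IGF2BP3 (chr7:23310209-23470467, minus strand), a marker of aggressive carcinomas, was at 95.3, 95.4 and 81.7 CPM in shGXYLT2 and 95.3, 100.1 and 99.5 CPM in shControl. Its lowest value was that of shGXYLT2 replicate 3, and the log2 fold change of -0.11 (SE 0.068, edgeR adjusted p = 0.32) became -0.042 without that library. IGF2BP3 shares 1521 exon bases with MALSU1, a mitochondrial ribosome assembly gene on the opposite strand, which averaged 50.2 CPM in shGXYLT2 and 47.6 CPM in shControl. No source used here says if strand entered the counting, and reads over the shared bases may belong to either gene.

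Summed over the family, the IGF2BP genes were at 256, 248 and 234 CPM in shGXYLT2 and at 251, 255 and 260 CPM in shControl. Within the family, scaled per deposited length, IGF2BP1 held 23.0%, 23.0% and 22.8% in the shGXYLT2 libraries and 21.8%, 21.6% and 21.5% in the shControl libraries. These shares did not overlap, although the level of IGF2BP1 itself did. For CPM, such a separation was found in 30.4% of all tested genes, and for shares no background was computed. No IGF2BP gene passed the edgeR test, and a share does not show which member moved.

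MSI2 (chr17:57255851-57684685, plus strand) was the Musashi gene of these cells, at 112, 120 and 106 CPM in shGXYLT2 and 102, 104 and 107 CPM in shControl. The groups overlapped through shGXYLT2 replicate 3. Its log2 fold change was 0.11 (SE 0.063, edgeR adjusted p = 0.30), with a 95% interval of -0.023 to 0.24, and 1 library moved it either way. It was 0.15 without shGXYLT2 replicate 3 (edgeR adjusted p = 0.0476) and 0.059 without shGXYLT2 replicate 2 (0.60). MSI1 (chr12:120341330-120369180, minus strand), the neural stem cell member, was at 1.80, 2.64 and 2.38 CPM in shGXYLT2 and 2.30, 1.697 and 2.77 CPM in shControl. These values rested on 29 to 65 counts per library, and the 95% interval of its log2 fold change, -0.48 to 0.47, was the widest of the tested members, so changes inside it were not detectable at this depth.

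**Figure D3:**
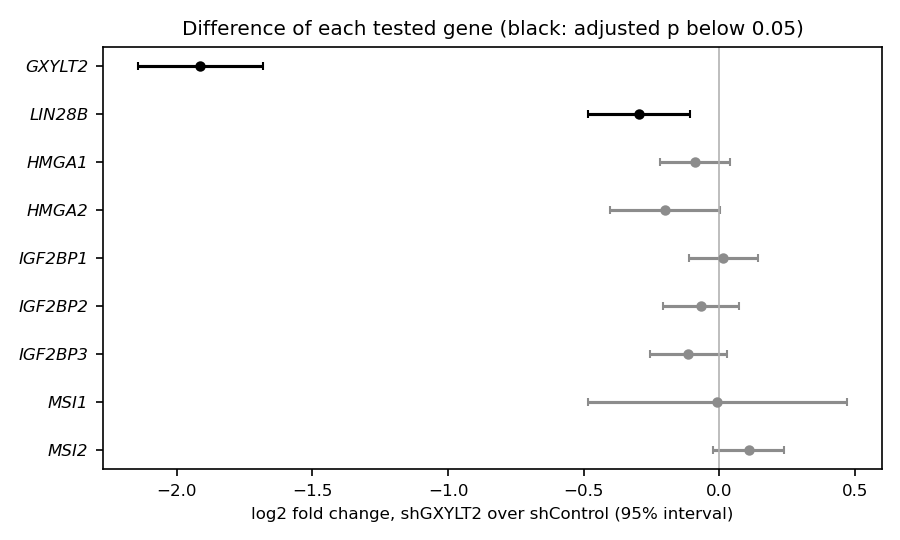
Log2 fold change of shGXYLT2 over shControl with its 95% interval for GXYLT2 and the 8 tested members, black where the edgeR adjusted p was below 0.05. LIN28B at -0.30 is the member in black, and MSI1 has the widest interval.

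Levels of different genes were compared as CPM per kilobase of the deposited gene length, for which no definition is given. In both groups HMGA1 was highest, at 213 ± 15.7 in shGXYLT2 and 226 ± 9.71 in shControl (SD, n = 3 each), a level above that of 98.2% of tested genes in shControl. MSI2 followed at 50.1 in shGXYLT2 and 46.5 in shControl, and then came IGF2BP3 (21.2 and 23.0), IGF2BP2 (16.5 and 17.3), IGF2BP1 (11.2 and 11.1), HMGA2 (9.18 and 10.6), LIN28B (7.13 and 8.77) and MSI1 (0.768 and 0.762), each given for shGXYLT2 first and then shControl. Neighbours in this order did not overlap between libraries, except IGF2BP1 and HMGA2 in shControl. The order below HMGA1 depended on the length: with merged exons of GENCODE 29, MSI2 stood after the 3 IGF2BP genes at 5.24 in shGXYLT2 and 4.86 in shControl, and HMGA2 stood below LIN28B at 1.06 and 1.23.

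**Figure D4:**
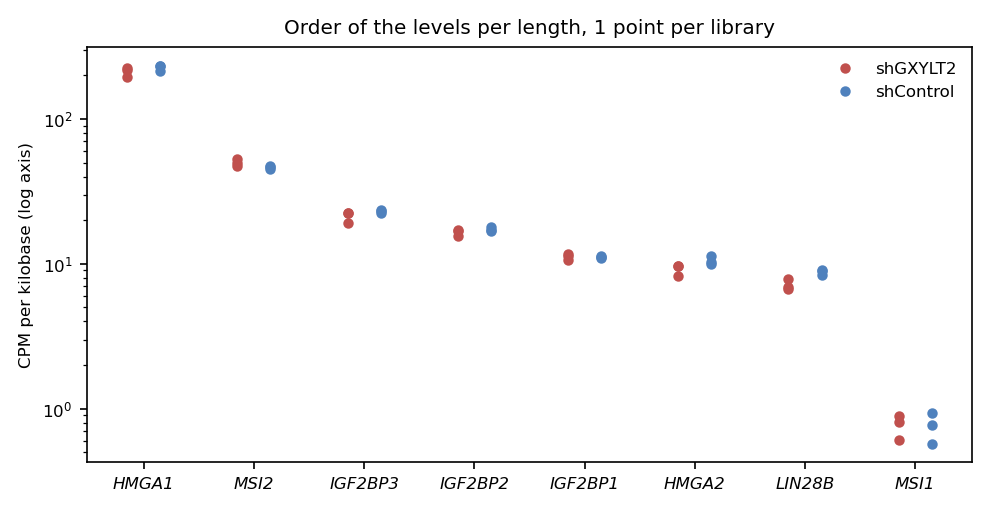
CPM per kilobase of deposited length on a log axis, 1 point per library, shGXYLT2 in red left of shControl in blue, for the 8 tested members in the order of their shControl means. HMGA1 is lowest at 195 in an shGXYLT2 library and MSI1 below 1.

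The genes that act with this set were read from lists of its pathways. Over all tested genes 6.84% were lower and 5.31% higher at the adjusted threshold, and no test over a list was run. Counts at an unadjusted p have no such share beside them. Of 13 tested genes that process, tail or degrade let-7 precursors, the step that LIN28 blocks, 0 passed the edgeR test (median log2 fold change -0.014, against -0.0057 over all tested genes), with 0 higher and 0 lower at an unadjusted p below 0.05, 0 called by the DESeq2 Wald test and 0 by limma-voom. Among them KHSRP, which promotes let-7 processing, averaged 409 CPM in shGXYLT2 and 423 CPM in shControl, and the exportin XPO5 averaged 199 CPM and 210 CPM. Of 6 tested host transcripts of let-7 microRNAs 1 rose: MIR99AHG, which hosts let-7c, averaged 29.2 ± 2.76 CPM in shGXYLT2 and 22.7 ± 2.35 CPM in shControl (SD, n = 3 each, edgeR adjusted p = 0.0143). Its adjusted p was above 0.05 without shGXYLT2 replicate 2, without shControl replicate 1 and without shControl replicate 2, reaching 0.101. Mature microRNAs were not measured.

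Of 31 other tested mRNAs known as let-7 targets 1 rose and 3 fell, with a median log2 fold change of -0.047. The shares over all tested genes were 5.31% higher and 6.84% lower. The DESeq2 Wald test and limma-voom each also called 1 higher and 3 lower. THBS1, a matrix glycoprotein, fell to 37.7 CPM in shGXYLT2, against 60.8 CPM in shControl (log2 fold change -0.69), and CDK6, a kinase of the G1 phase, fell to 65.0 CPM, against 84.4 CPM (-0.38). The growth-promoting transcription factor MYC fell to 212 CPM in shGXYLT2, against 267 CPM in shControl (-0.33), a call kept in each of 13 alternative settings. PRTG, an embryonic adhesion receptor with 2 let-7 sites, averaged 2.51 CPM in shGXYLT2 and 1.23 CPM in shControl (edgeR adjusted p = 0.0107, and 0.0668 at most, in a fit with 1 library left out). THBS1, CDK6 and MYC held 0 copies of CTACCTC in the windows searched.

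Of all 1563 tested genes with CTACCTC in a 3′ UTR, 86 were higher (5.50%) and 155 lower (9.92%), and their median log2 fold change was -0.024. Of the 10808 without it, 672 were higher (6.22%) and 815 lower (7.54%), and the median was -0.00063. Genes with and without CTACCTC were not matched for UTR length, and 267 of the 1563 also held the word GACTCAT, described below. The part of let-7 pairing in this difference was not tested.

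A second 7-base word, GACTCAT, is known from an earlier search of these same data to be frequent in 3′ UTRs of genes that were lower. LIN28B held it once and IGF2BP1 at 2 places, and MSI2 held it once in the UTR of 1 of its transcripts. The LIN28B copy is shown because it lies in the member that changed, with the word in capitals.
LIN28B, 3′ UTR base 4295 (chr6:105083067-105083095, plus strand): ttgtccattttGACTCATgttgtttacaa
Of 1166 tested genes with the word 264 were lower (22.6%) and 45 higher (3.86%). Of 11205 without it 706 were lower (6.30%) and 713 higher (6.36%). An excess among lower genes was fixed in advance by the search of these same data, so these shares do not test the word. Of the 3 members with the word, LIN28B fell, while IGF2BP1 and MSI2 had positive log2 fold changes that did not pass. Of the genes named from the pathway lists, CDK6 and HK2, which fell, held it too, and so did HNRNPU, with a log2 fold change of -0.057 (edgeR adjusted p = 0.55). Of 1296 tested genes with CTACCTC but without GACTCAT, 103 were lower (7.95%), beside 6.30% of all genes without GACTCAT, these 1296 among them. The 7.54% given above for genes without CTACCTC includes genes with GACTCAT, so it is not the like comparison. The part of the word in the LIN28B result was not tested.

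Of 17 tested mRNAs known to be bound by IGF2BP proteins 1 rose and 4 fell (median log2 fold change -0.034). The shares over all tested genes were 5.31% higher and 6.84% lower. The DESeq2 Wald test called 0 higher and 3 lower, and limma-voom called 0 higher and 4 lower. HK2, the hexokinase of glycolytic tumours, fell to 147 CPM in shGXYLT2, against 189 CPM in shControl (edgeR adjusted p = 2.3e-04), and ACTB, beta-actin, fell to 2434 CPM, against 2834 CPM. MYC also belongs to this list. The imprinted RNA H19 was the other that fell, and the transporter ABCB1 rose, at 1.30 CPM in shGXYLT2 and 0.602 CPM in shControl. The ACTB call (adjusted p = 0.0208) was lost without shGXYLT2 replicate 2 and without shControl replicate 1 or 2, and the ABCB1 call (0.0462) was lost without each library but shGXYLT2 replicate 3, with the DESeq2 Wald test and with limma-voom, up to 0.235.

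The proteins that write, erase or read m6A, and those found with IGF2BP proteins in RNA granules, gave no calls. Of 18 tested writers, erasers and other readers of m6A, 0 passed (median log2 fold change -0.021), with 1 higher and 1 lower at an unadjusted p below 0.05, 0 called by the DESeq2 Wald test and 0 by limma-voom. Among them HNRNPA2B1, the most abundant, averaged 2248 CPM in shGXYLT2 and 2440 CPM in shControl (edgeR adjusted p = 0.21). HNRNPC averaged 1295 CPM and 1312 CPM. Of 15 tested rows for protein partners of IGF2BP granules, 0 passed (median -0.057), with 0 higher and 0 lower at an unadjusted p below 0.05, 0 called by the DESeq2 Wald test and 0 by limma-voom. YBX1 averaged 1981 CPM in shGXYLT2 and 2143 CPM in shControl, and HNRNPU averaged 1583 CPM and 1646 CPM; 1 of the 14 listed symbols named more than 1 row.

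Of 13 tested mRNAs known as Musashi targets 1 rose and 1 fell (median log2 fold change -0.026). Over all tested genes 5.31% were higher and 6.84% lower, so these counts are near the background. NUMB was at 58.9, 62.2 and 60.2 CPM in shGXYLT2, against 47.8, 52.0 and 49.3 CPM in shControl. Its groups did not overlap, as in 30.4% of all tested genes. Its log2 fold change was 0.28 (SE 0.066, edgeR adjusted p = 0.0080), and the adjusted p was up to 0.0755 without shControl replicate 1 or 3. MYC was the one that fell. Of 13 tested genes known to be controlled by HMGA proteins 0 passed (median -0.090), with 3 higher and 3 lower at an unadjusted p below 0.05, 0 called by the DESeq2 Wald test and 0 by limma-voom. No share of all tested genes was computed at that unadjusted threshold, so the unadjusted counts have no background beside them. CCNA2 averaged 142 CPM in shGXYLT2 and 144 CPM in shControl, and CCNB2 averaged 90.5 CPM and 79.9 CPM (adjusted p = 0.064), a value below 0.05 with upper-quartile factors and without shGXYLT2 replicate 3.

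Other high mobility group genes were tested beside HMGA1 and HMGA2. Of 8 tested HMGB and HMGN genes 2 rose and 0 fell (median log2 fold change 0.14), beside 5.31% higher and 6.84% lower over all tested genes. HMGB2, a DNA-bending protein of dividing cells, averaged 318 ± 3.02 CPM in shGXYLT2 and 277 ± 11.01 CPM in shControl (SD, n = 3 each, edgeR adjusted p = 0.0221). HMGN2, which binds nucleosomes, averaged 928 CPM and 809 CPM (adjusted p = 0.0335). Both calls were lost without each shControl library in turn, that of HMGB2 also without shGXYLT2 replicate 1 and that of HMGN2 also without shGXYLT2 replicate 2, up to 0.134 and 0.170.

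Of 22 other oncofetal and embryonic genes 9 had enough counts to be tested, and 2 rose and 1 fell (median log2 fold change -0.070), all at low levels. Over all tested genes 5.31% were higher and 6.84% lower, and no test over this list was run. PRTG rose as above, and PLAC1, a placental gene, averaged 2.21 CPM in shGXYLT2 and 1.14 CPM in shControl (edgeR adjusted p = 0.0190). H19 was at 1.80, 1.46 and 2.11 CPM in shGXYLT2, against 3.50, 2.98 and 2.68 CPM in shControl (log2 fold change -0.77, edgeR adjusted p = 0.0223). The H19 call was lost with the DESeq2 Wald test and without shGXYLT2 replicates 1 or 2 or shControl replicates 1 or 2, and the PLAC1 call without shGXYLT2 replicate 3 or shControl replicates 1 or 3.

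The genes whose log2 CPM over the 6 libraries was most like that of LIN28B, among 10043 genes at or above a mean log2 CPM of 3, were ME1 and HS6ST2. ME1, the cytosolic malic enzyme, had a Pearson r of 0.996 with LIN28B and averaged 89.9 ± 5.50 CPM in shGXYLT2 and 105 ± 3.44 CPM in shControl. HS6ST2, a heparan sulfate sulfotransferase, had an r of 0.991 and averaged 47.0 ± 4.67 CPM in shGXYLT2 and 58.3 ± 2.69 CPM in shControl (SD, n = 3 each). An r above 0.9 was reached by 332 of the 10043 genes. These values are a description over 6 libraries in 2 groups.

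**Figure D5:**
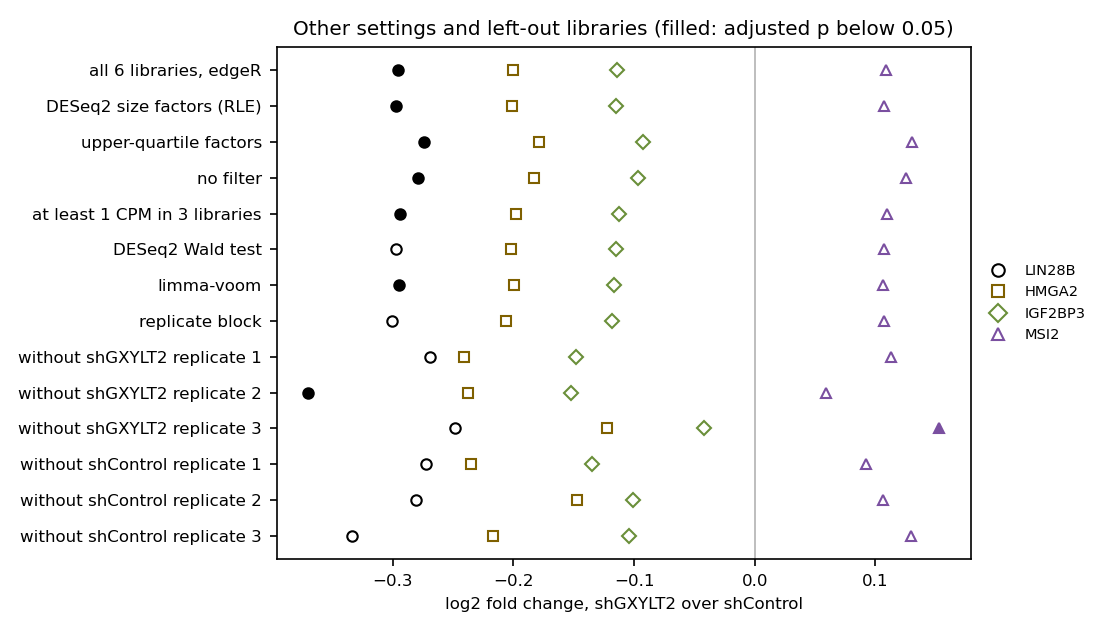
Log2 fold change of LIN28B, HMGA2, IGF2BP3 and MSI2 (x axis) under other settings and with each library left out (rows), filled where the adjusted p was below 0.05. LIN28B stays between -0.37 and -0.25 while its call comes and goes, and MSI2 is filled in 1 row, without shGXYLT2 replicate 3.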

How the data were processed

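RNA-seq was done on 6 libraries of HGC-27 cells, 3 shGXYLT2 and 3 shControl, grouped by their titles; per the labels' protocols, a stranded messenger RNA kit was used. The submitters' processing notes name GRCh38.p13 and the tools HISAT2, StringTie and fastp, with no versions or roles; the sources used here name no counting step or annotation. Deposited by the authors were estimated counts per gene, not normalized (12.3% of values not whole), and a gene length in bases of unstated definition.

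Counts were rounded and analysed in R 4.3.3 with edgeR 4.0.16: filterByExpr by group, TMM factors, robust quasi-likelihood fit with group as the only term, Benjamini-Hochberg adjustment over 15693 genes, threshold 0.05. Standard errors were derived from the F statistic, and 95% intervals from the t distribution with the fit's degrees of freedom. CPM are TMM-scaled, except summed marker lists and limits for counts of 0, which use library totals. Alternatives used limma 3.58.1, DESeq2 1.42.0, other factors and filters, a replicate block and each library left out. Pairs of libraries differed by a chi-square per degree of freedom of 1.88 to 3.63 within shControl and 5.29 to 9.63 within shGXYLT2. Across the groups it was 7.55 to 16.3, which overlaps the range within shGXYLT2. None was taken as a copy. The fit was also run on counts simulated with the same spread for all genes and libraries, and no result here rests on that run. Gene spans and 3′ UTRs came from GENCODE 29 and microRNAs from RefSeq. The 9 members and GXYLT2 each matched GENCODE by identifier.

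The members and lists were chosen with earlier results of these data known. Named genes are the members, GXYLT2, GXYLT1, and up to 3 risen and 3 fallen genes of each list by adjusted p or else its 2 most abundant. Also named are antisense or copied genes with at least 10 counts (there were 0), and the 2 genes most like a called member. MALSU1, PPP4R2 and the markers were named outside this rule.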

Additional observations from a re-analysis of the deposited data

How the results depend on the processing

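GXYLT2 kept its call in each of 13 alternatives, with log2 fold changes of -2.00 to -1.86 with a library left out. The count of changed genes was 960 to 2347 with a library left out, against 1907 with all, and was 990, 1152 and 960 without shControl replicates 1, 2 and 3, and lay within 1.5 times of it under the settings that keep all libraries. The number of members called was 0 with the DESeq2 Wald test and 0 with the replicate block, and 0 to 1 with a library left out, where the 1 was LIN28B without shGXYLT2 replicate 2 and MSI2 without shGXYLT2 replicate 3; the cause was not tested. Numbers from the titles were used for the replicate block; the deposited columns carry other numbers, under which the libraries titled replicate 2 do not share one. Same-numbered libraries by title did not deviate together (correlations of -0.0304 to 0.00833 over genes), nor did any other pair across the groups (-0.0335 to 0.0379), so the numbers are not taken to pair the samples. With the replicate block 1471 genes were called, the LIN28B adjusted p was 0.0503, and those of ACTB, ABCB1, HMGB2 and HMGN2 were 0.0514, 0.0722, 0.0648 and 0.0771, above the threshold. MSI1 turned positive with upper-quartile factors (0.015), without a filter (0.0092) and with the replicate block (0.0081), and ran from -0.17 to 0.18 with a library left out. IGF2BP1 ran from -0.014 to 0.051 with a library left out, HNRNPC from -0.053 to 0.0079 and CCNA2 from -0.069 to 0.021. HNRNPC was 0.0036 with upper-quartile factors, and CCNA2 was 0.0085 with these and 0.0032 without a filter. HMGA1, HMGA2, IGF2BP2 and IGF2BP3 kept their sign and did not pass in any of the 13. Depth limits LIN28A, at 0 to 4 counts, and MSI1 most.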
